A study of Mus musculus with 8 samples.

Results

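T cells were the columns of a single-cell count table that carried RNA of the CD3 chains of the T cell receptor complex. They were 826 of 24942 cells (3.31%, exact 95% binomial interval 3.09 to 3.54%). A cell was taken where the unique molecular identifiers (UMIs, 1 per captured RNA molecule) of Cd3d, Cd3e and Cd3g summed to 2 or more. It also needed at most 1 UMI of the B cell gene Cd79a, at most 2 of the macrophage genes C1qa, C1qb and C1qc, and less than 20% of its UMIs from globin genes. Of these cells, 224 had UMIs of Cd8a or Cd8b1 and none of Cd4 (CD8 cells), 213 had Cd4 and neither CD8 gene (CD4 cells), 10 had both, and 379 (45.9%, 42.4 to 49.4%) had neither. The cells were thus chosen by their Cd3d, Cd3e, Cd3g, Cd79a, C1q, globin and coreceptor UMIs, which are given as a description.

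The cells came from erythroblastic islands, the clusters in which red cell precursors mature around a macrophage, taken apart with EDTA and gentle force and run on the 10x v3.1 platform. All mice were males of the lupus-prone Sle1.Yaa strain. The labels give 2 bone marrow libraries (Tg_BM) and 2 spleen libraries (Tg_Spleen) from mice with a human TLR8 transgene that are labelled anemic, and 3 bone marrow libraries (WT_BM) and 1 spleen library (WT_Spleen) from non-anemic controls without it. The labels used here state neither age, nor the promoter of the transgene, nor how many mice each library holds. The table names a cell only by its barcode, so no cell could be tied to a library, and T cells could not be compared between transgenic and control mice or between spleen and marrow. The sorted barcodes restarted 7 times, which gave 8 unnamed runs, numbered here as they stand in the table, with 447 to 6787 cells and 6195876 to 48442321 UMIs each. Runs serve only to show how far a value varied. The 98 NK cells and the 16849 other cells under 20% globin served for comparison, and the pooled table is 1 sample, so no test was made.

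T cells recognise antigen through a receptor of alpha and beta chains or of gamma and delta chains, and the CD3 gamma, delta and epsilon chains carry its signal into the cell. CD8 cells read antigen on MHC class I and kill through granzymes and perforin. CD4 cells read MHC class II and divide into helper cells and Foxp3-expressing regulatory cells, and some gamma-delta cells make IL-17. Bone marrow holds recirculating, memory and regulatory T cells, and interferon gamma made by T cells is known to affect blood formation there.

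The CD3 genes lie together on chromosome 9 of GRCm38: Cd3d at chr9:44981786-44987339 on the plus strand, Cd3g at chr9:44969572-44980431 on the minus strand and Cd3e at chr9:44998740-45009627 on the minus strand. Cd3d and Cd3g point away from each other, with 1354 bases between them. The 250 bases before each start (RefSeq, GRCm38.p6, on the gene's own strand) are shown because these genes define the cells and because 61 of the cells carried one of them almost alone. The windows are chr9:44981536-44981785 on the plus strand for Cd3d, chr9:44980432-44980681 on the minus strand for Cd3g and chr9:45009612-45009861 on the minus strand for Cd3e. Capitals mark matches, on either strand, to the core TGTGGT that RUNX factors of T cells are known to read. They likewise mark TCACAC, which stands here for the T-box factors Tbx21 and Eomes. AGGTCA was searched for the ROR family of nuclear receptors. TGANTCA was searched for AP-1, which is switched on when the receptor is engaged. AGATAA was searched for the GATA family, which includes the helper cell factor Gata3. Marked matches do not overlap.
Cd3d: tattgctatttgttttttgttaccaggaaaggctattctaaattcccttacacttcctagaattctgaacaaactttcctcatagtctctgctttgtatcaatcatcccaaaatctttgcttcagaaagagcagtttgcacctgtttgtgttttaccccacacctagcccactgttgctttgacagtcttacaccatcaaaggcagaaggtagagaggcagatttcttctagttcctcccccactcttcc
Cd3g: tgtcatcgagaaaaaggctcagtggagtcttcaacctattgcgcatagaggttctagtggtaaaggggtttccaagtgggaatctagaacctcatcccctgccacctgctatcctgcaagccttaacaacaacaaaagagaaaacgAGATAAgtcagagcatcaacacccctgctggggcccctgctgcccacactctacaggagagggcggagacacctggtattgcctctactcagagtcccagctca
Cd3e: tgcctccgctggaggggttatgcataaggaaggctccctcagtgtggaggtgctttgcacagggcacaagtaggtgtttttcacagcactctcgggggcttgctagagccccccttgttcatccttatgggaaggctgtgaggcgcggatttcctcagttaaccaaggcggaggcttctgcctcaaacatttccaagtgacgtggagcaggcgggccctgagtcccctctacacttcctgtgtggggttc
The only match in these windows was a GATA motif in Cd3g, 104 bases before the start, a motif found in 9.99% of all 32851 RefSeq promoters of that length. No match means only that these letters are not in the window.

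Most cells taken by the rule carried the RNA of a T cell, and a small set did not. The 7 neutrophil granule genes made up 21.6 to 55% of the UMIs (median 46.8%) in 61 cells (7.38%, 5.70 to 9.39%), and at most 2.28% in the other 765. No cell lay between 5 and 20%. Only 3 of the 61 had a UMI of the receptor constant genes Trac, Trbc1 or Trbc2 (4.92%), against 758 of 765 (99.1%). That measure does not tell T cells from NK cells, since 86 of the 98 NK cells (87.8%) also met it. Trac alone was read in 633 of the 765 (82.7%) and in 4 of the NK cells (4.08%). Among the 318 of the 765 with neither coreceptor, 209 had Trac (65.7%). The CD3 RNA of the 61 cells was nearly all Cd3d, with 139 of 145 CD3 UMIs (95.9%), 3 of Cd3e and 3 of Cd3g. In the 765 cells each CD3 gene was well read, with Cd3d at 927, Cd3e at 529.6 and Cd3g at 1119 CPM (UMIs scaled to a class total of 1000000).

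The granule-rich cells went against the label and are called by their leading genes. They held a summed 20.7 CPM of 9 T cell markers, with Trbc1 and Cd6 at 0, against 4531 CPM in the other 765. All were in the class with no coreceptor RNA, and 10, 2, 19 and 30 of them were in runs 1 to 4, with none in runs 5 to 8. Runs 1 to 4 also held 515, 112, 1428 and 1768 granule-rich cells outside the rule, and runs 5 to 8 held 52, 599, 112 and 13, of 4599 in all, and 225 of those 4599 had a Cd3d UMI. A median of 0.826% of their UMIs was mitochondrial, against 3.97% in the 765 cells, and their median depth was 11052 against 5258 UMIs. No doublet caller was run, and the part of doublets or free RNA in these cells was not tested. Results below that they touch are given with and without them.

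**Figure D1:**
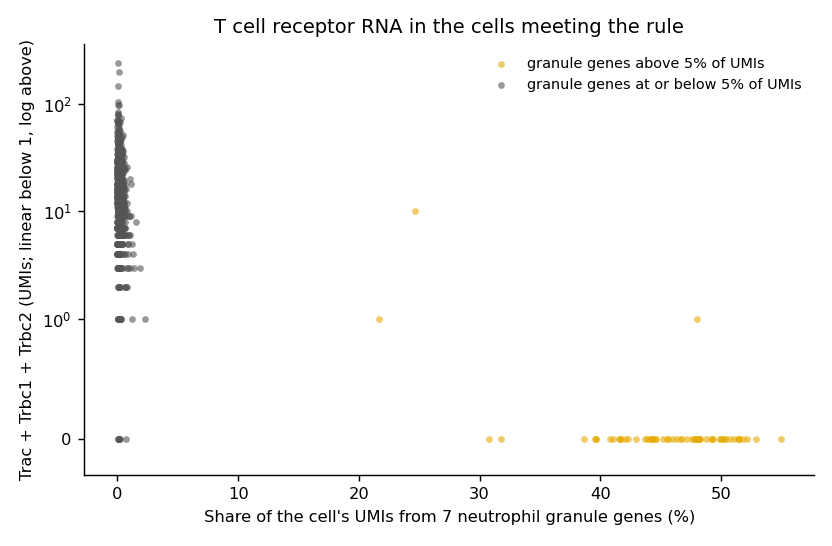
Each point is 1 of the 826 cells, with the share of its UMIs from 7 neutrophil granule genes (%) on the x axis and its summed Trac, Trbc1 and Trbc2 UMIs on the y axis (linear below 1, log above). The 61 granule-rich cells sit at 21.6 to 55% with a receptor UMI in 3 of them, and the other 765 lie at or below 2.28% with a receptor UMI in 758.

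The cutoff of 2 CD3 UMIs ran through this mixture. Just outside it, 354 cells had 1 CD3 UMI, and 38 of them (10.7%) had a receptor UMI, which was 34 of the 109 low in granule RNA (31.2%) and 4 of the 245 rich in it. Just inside, 74 cells had 2, and 26 (35.1%) had a receptor UMI, which was 25 of the 29 that were low in granule RNA and 1 of the 45 that were rich in it. With 3 CD3 UMIs, 26 of 38 cells (68.4%) had one, and 519 cells had 10 or more CD3 UMIs. The other limits kept out 18 cells with 2 or more CD3 UMIs, 7 by Cd79a, 8 by the C1q genes and 3 by globin. In the 996 cells with 2 or more Cd79a UMIs and no CD3 UMI, taken as B cells, 22 (2.21%) had a receptor UMI.

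T cells were unevenly spread over the runs. Their share was lowest at 1.09% in run 7, had a median of 2.84% and was highest at 12.1% in run 8, and runs 1 and 2 held 179 and 158 of the 826. Among the 765 cells, CD8 cells made up 11.9% in run 6 up to 63.2% in run 7, where only 19 T cells were found, and CD4 cells 14.9% in run 6 up to 42.7% in run 5. The ratio of CD8 to CD4 cells ran from 0.457 in run 4 to 3 in run 7, with a median of 0.948. Cells with neither coreceptor were 73.3% of those in run 6, where the median depth was 2295 UMIs, and 15.8% in run 7. The next highest share of this class was 54.8% in run 3, where the median depth was 6529 UMIs, so runs did not simply follow depth. Depth moved with this class as a whole, since its median was 4423 UMIs against 6746.5 in CD8 and 4960 in CD4 cells; the part of depth in its size was not tested. Barcodes found in more than 1 run numbered 287, and 6 T cells carried one.

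**Figure D2:**
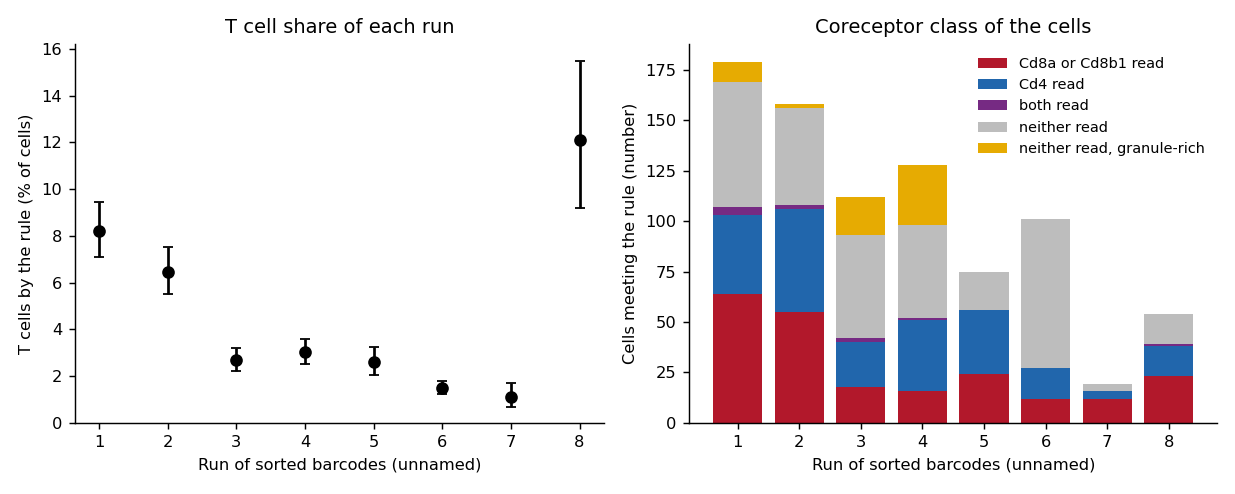
The left panel gives T cells as a share of the cells in each of the 8 runs (%, bars are exact 95% binomial intervals) and the right panel the number of cells by coreceptor class. Shares range from 1.09% in run 7 to 12.1% in run 8, and the granule-rich cells appear in runs 1 to 4.

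The T cells were led by the chemokine Ccl5 and by receptor genes. Levels are UMIs summed over the cells of a class and scaled to CPM, with exact 95% Poisson intervals that cover counting error only. They do not tell few cells with much RNA from many cells with little, so numbers of cells are added where that matters. In the 765 cells low in granule RNA, Ccl5, which attracts T cells and monocytes, had 7669.6 CPM (7591 to 7749), with a lowest, median and highest run of 2277, 7056 and 12047 CPM. Every run was far above the 44.7 CPM of the other cells. Ccl5 lies at chr11:83525778-83530518 on the minus strand.

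The receptor chain genes were less variable over runs than Ccl5. Trac, the alpha constant region, had 323, 641 and 749.8 CPM in its lowest, median and highest run, against 1.10 CPM in the other cells. Trbc2, a beta constant region, had 1189.9, 1485 and 1819 CPM, against 4.06 CPM. Trbc1, the other one, had 658, 903 and 1611 CPM, against 3.92 CPM. Trbc1 and Trbc2 are near-identical, so the split of reads between them is uncertain. The kinase Lck had 307, 349 and 402 CPM, the costimulatory receptor Cd28 81.7, 416 and 754 CPM and the transcription factor Bcl11b, which holds T cell identity, 117, 224 and 335 CPM. Cd28 was the most uneven of these, and Lck the least.

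A gene was called where it differed at least 2-fold between pooled classes (10 CPM added, centred on the median gene, 50 CPM or more in either class) and had that sign in every run with 20 cells of both. Against the other cells, 354 of 3192 genes were higher in T cells (11.1%) and 364 lower (11.4%). Without the granule-rich cells it was 387 (11.6%) and 466 (14%) of 3330. Since the rule set this contrast, nothing is read from the counts. The named members outside the CD3 genes were 7669.6 against 44.7 CPM for Ccl5, 1023 against 9.64 CPM for Ms4a4b, a T cell membrane protein, 518 against 8.59 CPM for the lymphocyte GTPase Gimap4, 344 against 2.65 CPM for the adaptor Skap1 and 431 against 6.35 CPM for Il2rb, a receptor chain for IL-2 and IL-15. All 19 tested genes of the T cell identity list were higher. Of the proliferation list, 18 of 21 were lower (19 without the granule-rich cells), with Mki67 at 135 against 614 CPM and Stmn1 at 194 against 513 CPM.

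Ifng, the gene of interferon gamma, was the marker the rule did not count, and it lies at chr10:118441046-118445892 on the plus strand. Its promoter window, chr10:118440796-118441045 on the plus strand, is shown because T-box factors such as Tbx21 and Eomes are known to act on this gene, and Eomes differed between the classes described next. It held no match to any of the 5 motifs, of which the T-box motif TCACAC was in 12.3% and the RUNX motif TGTGGT in 14.05% of all promoters.
Ifng: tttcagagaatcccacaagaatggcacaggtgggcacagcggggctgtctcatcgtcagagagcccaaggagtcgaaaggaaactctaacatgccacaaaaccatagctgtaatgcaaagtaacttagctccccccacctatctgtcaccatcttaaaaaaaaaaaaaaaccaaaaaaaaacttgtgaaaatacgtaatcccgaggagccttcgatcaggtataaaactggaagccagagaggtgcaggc
Ifng stood at 324 CPM (308 to 341) in the 765 cells and 277 CPM in all 826. The runs gave 380.4, 519.6, 258, 271, 414, 86.0, 295 and 50.2 CPM for runs 1 to 8. Runs 6 and 8 were low and run 2 was high.

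Ifng RNA was present in each T cell class. It had 306 CPM (281 to 333) in CD8 cells, 429 CPM (394 to 467) in CD4 cells and 267 CPM (242 to 294) in cells with neither coreceptor, against 405 CPM in NK cells and 0.622 CPM in B cells. CD8 cells had 337, 499, 348 and 46.4 CPM in runs 1, 2, 5 and 8, and CD4 cells 695, 720.5, 313, 127 and 439 CPM in runs 1 to 5. CD4 cells were the higher in each of runs 1, 2 and 5, and the ranges of the classes over runs overlapped. A UMI was found in 59.4% of CD8, 44.6% of CD4 and 37.4% of the cells with neither, against 0.502% of B cells at a median of 5064 UMIs. After each cell was thinned to 1000 UMIs the shares were 27.4%, 19.8%, 14.97% and 0.101%. The shares and the summed levels put CD8 and CD4 cells in opposite orders, so no order is read between them.

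CD8 cells were set apart from CD4 cells by killer-cell genes and several NK-type receptor genes. CD4 cells were set apart by regulatory T cell genes and by 3 genes of the follicular helper list. Of 3104 genes, 39 were higher in CD8 cells (1.26%) and 101 were lower (3.25%), with runs 1, 2 and 5 compared. Without centring the median gene stood at -0.17 on the log2 scale and the counts were 30 and 142. The coreceptor genes that chose the classes lie on chromosome 6, Cd8a at chr6:71373427-71379173 and Cd4 at chr6:124864692-124888221.

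**Figure D3:**
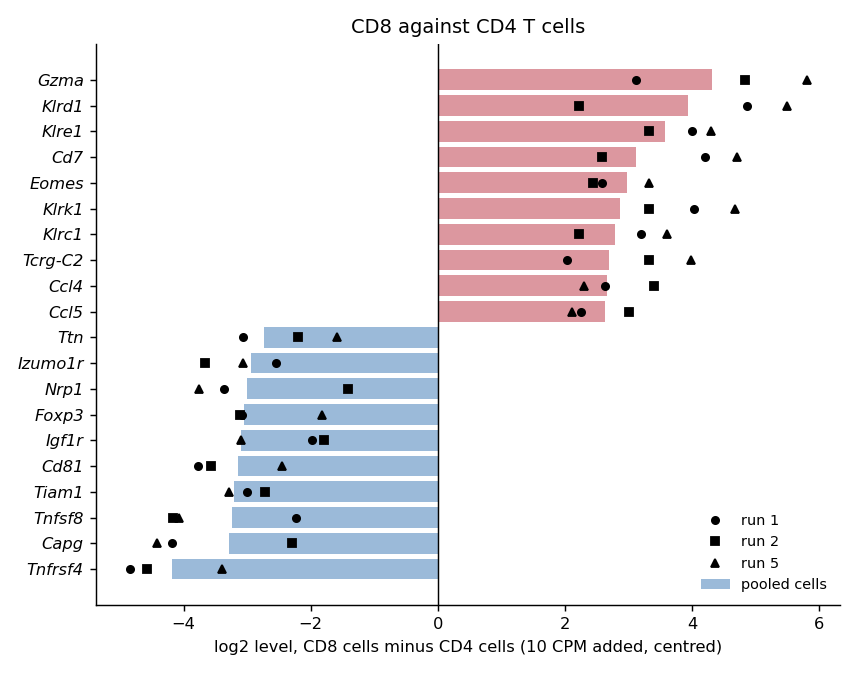
Bars give the log2 level in CD8 cells minus that in CD4 cells (10 CPM added, centred on the median gene) for the 10 highest and 10 lowest genes past 2-fold, and points the same value within runs 1, 2 and 5. Gzma stands highest at 4.31 and Tnfrsf4 lowest at -4.19, and each point lies on the side of its bar.

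Ccl5 was read in 202 of 224 CD8 cells and in 103 of 213 CD4 cells. CD8 cells had 15950.2, 25104, 19743 and 3728 CPM in runs 1, 2, 5 and 8, and CD4 cells 3692, 3302, 305, 1305 and 4732 CPM in runs 1 to 5. CD8 cells were higher within runs 1, 2 and 5, while CD8 cells of run 8 lay below CD4 cells of run 5. The pooled levels were 14218 CPM (14046 to 14392) and 2572 CPM (2485 to 2662), a log2 difference of 2.63. Eomes, the T-box factor of killer and memory cells, was read in 133 CD8 cells and 15 CD4 cells. It had 268, 259, 267 and 155 CPM in runs 1, 2, 5 and 8 of CD8 cells, all above the 25.3 CPM of pooled CD4 cells. Tbx21, the related factor that drives interferon gamma in helper cells, was at 24.01 CPM in CD8 and 33.2 CPM in CD4 cells and was too low for a call.

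The cytotoxic list was higher in CD8 cells for 10 of its 13 tested genes, with a median log2 difference of 1.70 (runs 1.42 to 2.05). The median over all genes tested is 0 by centring. Gzma (chr13:113093825-113100981, minus strand), a granzyme, had the highest difference. It was 68.8, 546, 529 and 0 CPM in runs 1, 2, 5 and 8 of CD8 cells, and 0, 10.6, 0, 0 and 0 CPM in runs 1 to 5 of CD4 cells. It came from 26 CD8 cells, 1 of which gave 24.9% of the UMIs, and from 2 CD4 cells. Gzma was therefore a gene of few cells, unlike the granule protein Nkg7 at 2136 against 736 CPM. Gzmk stood at 199 against 62.4 CPM, Gzmb at 361 against 89.2 CPM and Prf1, the pore-forming perforin, at 148 against 18.9 CPM. Gzmb in CD4 cells was uneven, with 361 CPM in run 5 and 0 in run 4. The inflammatory chemokine genes Ccl4 and Ccl3 were at 1236 against 211 CPM and 489 against 90.8 CPM.

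Of the list of NK receptors, adaptors and related factors, 4 of 5 tested genes were higher in CD8 cells, namely Klre1, Eomes, Cd7 and the kinase gene Txk. The list's median of 2.98 (runs 2.44 to 3.33) is that of Eomes itself. Of the receptor genes already counted in the cytotoxic list, Klrd1, the CD94 chain, had 212 against 6.31 CPM and was read in 101 CD8 cells and 6 CD4 cells. Klrk1, the activating receptor NKG2D, had 132 against 11.8 CPM, and Klrc1, the NKG2A chain, 66.0 against 2.37 CPM. Klre1 had 95.5 CPM in 46 CD8 cells and no UMI in CD4 cells, which allows up to 2.37 CPM there. Cd7 had 324 against 33.2 CPM and Tcrg-C2, a gamma constant region with near-identical copies whose reads may be split, 65.5 against 3.16 CPM. Members of the Klr families also have close copies, so their single levels are uncertain. The summed NK markers were 187 CPM in CD8 and 125 CPM in CD4 cells, and Ncr1 was at 0 in CD4 cells.

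The regulatory T cell list was lower in CD8 cells for 9 of 10 tested genes, with a median of -2.56 (runs -2.80 to -1.94). Tnfrsf4, the costimulatory receptor OX40 (chr4:156013843-156016612, plus strand), was read in 9 CD8 cells and 130 CD4 cells. It was 13.1 CPM in pooled CD8 cells, while CD4 cells had 479, 321, 257, 318 and 897 CPM in runs 1 to 5, all far higher. Foxp3, the master factor of regulatory T cells (chrX:7573644-7595245, plus strand), was read in 1 CD8 cell and 50 CD4 cells, at 1.64 against 98.7 CPM. Ikzf2, the transcription factor Helios, had 195 against 721 CPM, Tnfrsf18, the receptor GITR, 58.4 against 338 CPM, and Ctla4, an inhibitory receptor, 126 against 424 CPM. Izumo1r, the folate-receptor-like protein of regulatory and anergic cells, had 31.1 against 345 CPM and Nrp1, neuropilin, 6.55 against 139 CPM.

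Of the follicular helper list, which covers cells that help B cells make antibody, 3 of 6 tested genes were lower in CD8 cells. These were Icos at 69.9 against 319 CPM, Maf at 87.9 against 599 CPM and Il21 at 1.09 against 51.3 CPM. Pdcd1 of the same list was tested and not called. Cxcr5 and Bcl6 were not called either, but only 6 of the list's 14 genes reached 50 CPM and were tested. A gene of the list that was not called may thus have been too low to test. Il21, the cytokine that drives B cell help, was read in 1 CD8 cell and in 23 of 213 CD4 cells, 10 of which were in run 5. Tnfsf8, the CD30 ligand, had 19.6 against 306 CPM, Igf1r, the IGF-1 receptor, 3.27 against 118 CPM and Tiam1, an activator of the GTPase Rac, 1.64 against 111 CPM. Cd81, a tetraspanin, had 6.003 against 148 CPM, Capg, an actin-capping protein, 16.9 against 287 CPM and Ttn, the muscle protein titin, 3.82 against 93.9 CPM, where 1 cell gave 71.4% of the CD8 UMIs.

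**Figure D4:**
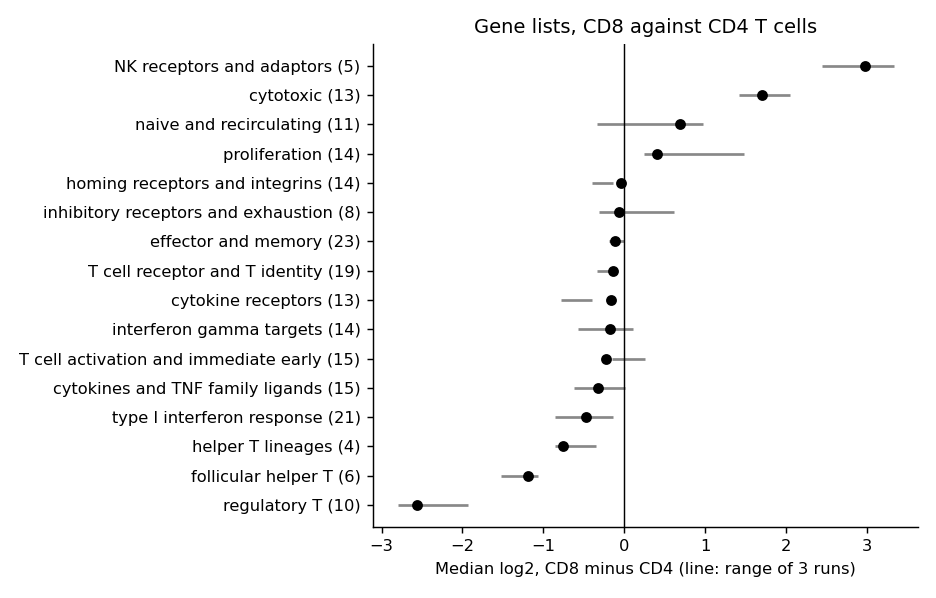
Points give the median log2 difference, CD8 minus CD4 cells, over the tested genes of each list (number in brackets), and lines the range of that median over runs 1, 2 and 5. Among these lists, each with 4 or more tested genes, NK receptors and adaptors (2.98) and the cytotoxic list (1.70) stand highest and the regulatory list (-2.56) lowest, while the naive and recirculating list spans 0.

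Some interferon response genes were lower in CD8 cells. Of the type I interferon response, 6 of 21 tested genes were lower in CD8 cells (Isg15, Isg20, Ifit1, Ifi27l2a, Slfn5 and Ifih1) and none was higher, with a median of -0.47 (runs -0.85 to -0.14). Ifi27l2a, the most abundant of them, stood at 574 against 1626 CPM, Isg15 at 64.4 against 170.5 CPM and Ifit1 at 25.6 against 79.7 CPM. Of the interferon gamma targets, 2 of 14 were lower, the chemokine Cxcl10, with 70.4 against 328 CPM, and the GTPase Iigp1, with 16.4 against 71.0 CPM. Monocyte markers moved with this: they summed to 69.9 CPM in CD8 cells (runs 19.3 to 108.7) and 353 CPM in CD4 cells (runs 32.4 to 1898), though 3 or more of their UMIs were found in only 7 CD8 and 8 CD4 cells. Their part in the interferon values was not tested.

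Naive, memory and exhaustion genes did not split the coreceptor classes cleanly. Of the naive and recirculating list, 2 of 11 were higher in CD8 cells (Dapl1 and Txk), with a median of 0.69 (runs -0.33 to 0.97). Ccr7, the receptor that takes T cells into lymph nodes, had 70.6, 6.24, 30.1 and 688 CPM in CD8 cells of runs 1, 2, 5 and 8. Run 8 alone was high, and without it the list's median was 0.40. The pooled Ccr7 levels were 152 CPM in CD8 and 63.9 CPM in CD4 cells. S1pr1, needed to leave tissues, had 19.9, 49.9, 4.30 and 270.4 CPM in the same runs of CD8 cells, again with run 8 high.

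Of 23 effector and memory genes, 3 were higher in CD8 cells (Ccl5, Ly6c2 and Eomes) and 4 lower (Cd44, S100a4, Itgb1 and Ly6a). Cd44, an adhesion receptor of memory cells, had 72.0 against 185 CPM, Itgb1, the integrin beta-1 chain, 193 against 571 CPM and the surface protein Ly6c2 1038 against 272 CPM. Pdcd1, the inhibitory receptor PD-1, had 44.2 against 77.4 CPM, Lag3 135 against 99.5 CPM and Tox 223 against 288 CPM, none of them called. The chemokine receptor Cxcr3 had 114 against 225 CPM. Of the 8 tested inhibitory genes, Cd160 was higher, and Ctla4 and Bhlhe40 were lower. No proliferation gene of 14 was called, and of 19 T cell identity genes 1 was lower, Cd5, a damper of receptor signalling, at 74.8 against 247 CPM.

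Foxp3 marked a subset within the CD4 cells. A Foxp3 UMI was found in 50 of 213 (23.5%, 18.0 to 29.7%), spread over all 8 runs, and in 36 of 318 cells with neither coreceptor, 4 of 10 with both, 1 of 224 CD8 cells and 0 of 996 B cells, which allows up to 0.301% of B cells with a UMI (3 cells). The following genes were chosen after their values were seen. Foxp3-positive CD4 cells had more Ikzf2 than the 163 without Foxp3, at 1499 against 444 CPM, more Tnfrsf4, at 931 against 297 CPM, and more Areg, which encodes the tissue-repair factor amphiregulin, at 333 against 42.8 CPM (25 and 20 cells). They had little Ifng, at 51.1 against 564 CPM (5 and 90 cells), and less Ccl5, at 1271 against 3036 CPM. The tissue-homing receptor gene Cxcr6 was at 6.01 against 228 CPM and Xcl1, a chemokine for cross-presenting dendritic cells, at 0 against 212 CPM. Median depths were close, at 5215.5 and 4960 UMIs.

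Cells with neither coreceptor were a mixture. Set against the 447 other T cells, 138 of 3010 genes were higher (4.58%) and 13 lower (0.432%), led by granule genes such as Ngp at 10970.3 against 64.9 CPM. Without run 6 the counts were 210 and 19, without run 1 137 and 21, without run 2 158 and 24, and without centring 77 and 29. Without the 61 granule-rich cells, 20 of 2992 genes were higher (0.668%) and 9 lower (0.301%) in the remaining 318. All values that follow are for these 318. Trdc, the delta constant region (chr14:54142851-54148868, plus strand), led them at 356 against 5.62 CPM, and it was read in 66 of 318 cells and in 5 of 447. Its log2 difference was 4.55, with 4.72, 4.71, 3.53, 5.18 and 4.28 in runs 1, 2, 3, 4 and 6. Of the gamma-delta list, 6 of 8 tested genes were higher, with a median of 2.58 (runs 1.09 to 3.48). Of these 6, Cd163l1 in runs 4 and 6 and Blk in run 3 had log2 values of 0.052, 0.030 and 0.060, signs that the centring alone gives where no UMI is read. Tcrg-C1, a gamma constant region with close copies, had 142 against 6.56 CPM, Blk, a Src-family kinase, 66.9 against 2.19 CPM and Klrb1c, the NK1.1 antigen in some strains, 90.5 against 7.49 CPM. Klrb1c had a log2 value of only 0.018 in run 1, so its sign there was weak.

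Few genes were lower in these cells. The 9 included Pclaf at 30.0 against 119.9 CPM, Mcm7 at 24.2 against 60.3 CPM, Tipin at 21.04 against 52.5 CPM and the histone gene Hist1h2ae at 22.3 against 124 CPM. In run 2, Pclaf and Mcm7 had log2 values of only -0.013 and -0.0008, so their signs there were weak. Of the proliferation list, 0 of 13 tested genes were called. Lag3 had 40.2 against 123 CPM, Pdcd1 18.5 against 57.4 CPM and Themis, a regulator of receptor signalling, 33.8 against 95.2 CPM. Of 20 T cell identity genes, Themis was the one lower. The class had the lowest median depth, so cells whose coreceptor RNA was missed cannot be told apart here from cells without it. After thinning every cell to 1000 UMIs, 598 of 820 T cells had neither coreceptor, against 379 of 826 before. Both of these counts include the granule-rich cells.

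The 318 cells held 62 with 2 or more Trdc UMIs, found in all 8 runs with 16, 12, 7, 9, 5, 9, 2 and 2 cells. Of these, 60 also had a UMI of Trac, Trbc1 or Trbc2. Such a UMI was found in 86 of 98 NK cells too, so it does not by itself show an alpha-beta receptor. Variable segments were sparse, and 46 of 51 delta-chain variable UMIs in the Trdc cells were of Trdv4. These 46 came from only 16 of the 62 cells, all in runs 1, 2 and 5, and 15 of the 16 had an Il17a UMI. All 34 T cells with an Il17a UMI but 1 had neither coreceptor. Il17a, at chr1:20730905-20734496 on the plus strand, encodes the neutrophil-recruiting cytokine IL-17A. Its 250-base promoter, chr1:20730655-20730904 on the plus strand (RefSeq, GRCm38.p6), is shown because it was read in so few cells and runs.
Il17a: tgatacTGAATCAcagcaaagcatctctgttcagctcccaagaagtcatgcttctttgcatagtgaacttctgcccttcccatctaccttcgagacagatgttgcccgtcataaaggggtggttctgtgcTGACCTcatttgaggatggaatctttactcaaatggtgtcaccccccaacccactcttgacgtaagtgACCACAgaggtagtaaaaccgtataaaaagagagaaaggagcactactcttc
The capitals mark an AP-1 match (TGANTCA) 244 bases before the start, a ROR match (AGGTCA, read on the other strand) 120 before it and a RUNX match (TGTGGT, read on the other strand) 52 before it. These motifs are in 6.75%, 14.02% and 14.05% of all promoters.

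Il17a RNA was concentrated in few runs. The 34 cells lay in run 1 (11), run 2 (18), run 5 (2), run 7 (2) and run 8 (1), and none was among the 93, 98 and 101 cells of runs 3, 4 and 6. They carried 314 Il17a UMIs, a median of 4 and at most 41 per cell, and 1 cell of 16849 of the other cells under 20% globin had a UMI. In the comparison with the other T cells Il17a was among the genes called higher, but in runs 3, 4 and 6 its sign came from the centring alone. Trdc was read in 22 of them, Trac in 15, Cd163l1 in 23 and Il7r, the IL-7 receptor, in 28, and all 44 of their delta variable UMIs were of Trdv4. Ifng was read in 3 and Ccl5 in 2.

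Il17a cells and the 40 Trdc cells without Il17a differed in most genes looked at, which were chosen after their values were seen. Il17a cells had Cd163l1, a scavenger receptor of gamma-delta cells (chr7:140218267-140231145), at 1074 CPM (935 to 1228), against 59.3 CPM (32.4 to 99.5) in the others. Blk stood at 462 against 25.4 CPM, and Cxcr6 and Ccr2, receptors for homing to tissue, at 843 against 152 CPM and 567 against 88.9 CPM. S100a4, a calcium-binding protein of motile cells, was at 2866 against 330.3 CPM. Il23r, the IL-23 receptor, and Sox13, a gamma-delta lineage factor, were at 115 and 151 CPM in the Il17a cells and had no UMI in the others. Other genes were higher in the Trdc cells without Il17a. Ccl5 was 10.0 against 5459 CPM (2 and 36 cells), Ifng 15.1 against 305 CPM (3 and 23 cells), Xcl1 0 against 881 CPM (0 and 30 cells) and Cd2 25.1 against 254 CPM. Within runs 1 and 2 alone, with 29 and 9 cells, Ccl5 was 12.5 against 6640.4 CPM and Cd163l1 1222 against 32.4 CPM, so both differences were present within these runs.

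**Figure D5:**
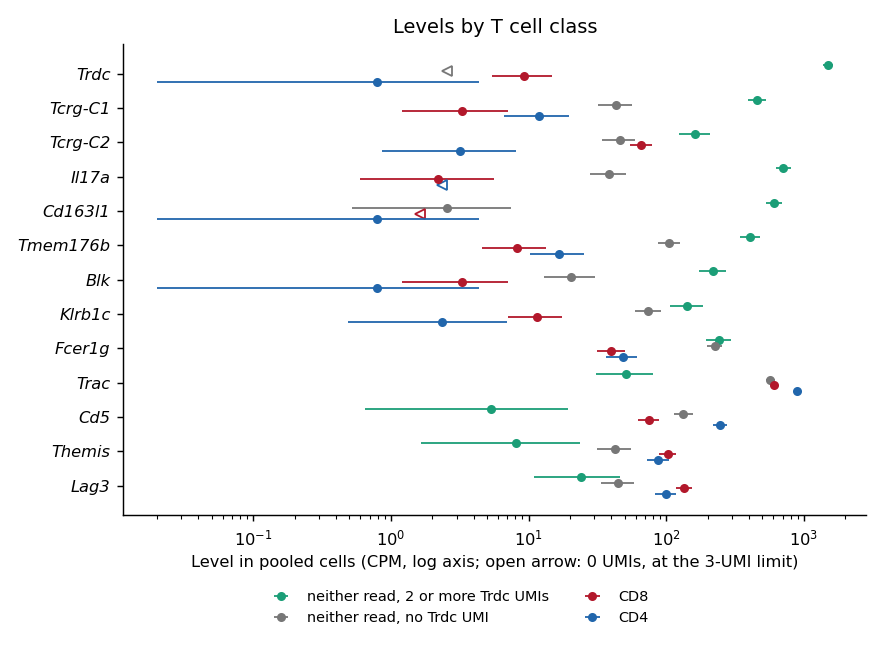
Points give levels in pooled cells (CPM, log axis, bars are exact 95% Poisson intervals) for cells with neither coreceptor and 2 or more Trdc UMIs, cells with neither and no Trdc UMI, CD8 cells and CD4 cells, with open arrows at the 3-UMI limit where no UMI was found. Il17a, Cd163l1 and Blk stand apart in the Trdc cells, at 711, 609 and 217 CPM, against 2.18, 0 and 3.27 CPM in CD8 cells.

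The 98 NK cells, taken by 2 or more UMIs of NK receptor genes and no CD3 UMI, served as the nearest comparison. Of 3183 genes, 106 were higher in T cells (3.33%) and 86 lower (2.7%), with runs 1, 3 and 6 compared, and without the granule-rich cells 82 (2.58%) and 97 (3.05%) of 3181. With the granule-rich cells kept, the counts were 160 and 99 without run 6 and 89 and 118 without centring. Values that follow are without them. NK cells shared much of the receptor RNA, since 86 of 98 had a UMI of Trac, Trbc1 or Trbc2, but Trac itself was at 636 against 6.98 CPM and was read in only 4 NK cells. Trbc1 was at 935 against 473 CPM. Bcl11b had 246 against 10.5 CPM, in 511 of 765 T cells and 5 of 98 NK cells, and Cd5 had 132 CPM in T cells and no UMI in NK cells. The interferon-response gene Ifi27l2a was at 886 against 31.4 CPM.

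Of 13 tested cytotoxic genes, 7 were lower in T than in NK cells: Gzma, Prf1, Ctsw, Serpinb9 and the receptor genes Klrd1, Klrk1 and Klrc1. Gzmk was higher, at 102 against 5.24 CPM. Gzma was at 95.8 against 955 CPM, in 41 T cells and 29 NK cells. The signalling adaptors Tyrobp and Fcer1g were at 105 against 1705 CPM and 107 against 1080.5 CPM. Xcl1 was at 241 against 2213 CPM, with log2 differences of -3.88, -0.84 and -0.65 in runs 1, 3 and 6, so run 1 carried most of it. The NK cells were chosen by Ncr1, Klrb1c and Klre1, so nothing is read from these or from other NK receptor genes, Klrd1, Klrk1 and Klrc1 included. Ifng was at 324 against 405 CPM and Ccl5 at 7669.6 against 4531 CPM, neither past 2-fold.

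Markers of other cell types differed in level in the T cell classes, and those of neutrophils were the most abundant. B cell markers summed to 8.19 CPM in CD8 cells, with Ms4a1, Ebf1 and Pax5 at 0, and 4.74 CPM in CD4 cells, with Ebf1 and Pax5 at 0. Neutrophil markers summed to 1162 CPM in CD8 cells (runs 54.1 to 1831) and 1654 CPM in CD4 cells (runs 352 to 4417), and 146 and 140 cells had 3 or more of their UMIs. In the 318 cells with neither coreceptor, neutrophil markers summed to 2176 CPM (runs 548 to 4088) and NK markers to 694 CPM (runs 249.8 to 1266), with 3 or more UMIs in 223 and 81 cells. Erythroid markers summed to 74.2 and 103.4 CPM and macrophage markers to 15.3 and 17.4 CPM in CD8 and CD4 cells. Their part in the results was not tested.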

How the data were processed

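The table holds UMI counts per gene and cell that the authors deposited for all libraries together. Per the submitters' processing notes, Cell Ranger 5.0.0 and Seurat 3.1.5 were used, with build mm10; the labels name the 10x v3.1 kit. No source used here states the filters on cells made before deposit. In all there were 24942 cells, 19669 genes and 248384567 UMIs, with a median of 7554 UMIs per cell. No column carried a library name, and 0 columns of per-sample values were left unused.

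Members were found by the rule with Python 3.11.15, numpy 2.4.6, pandas 2.3.3 and scipy 1.17.1, and figures drawn with matplotlib 3.10.9. No doublet caller was run. UMIs were summed over the cells of a class, given as CPM with exact 95% Poisson intervals, and compared as log2(CPM + 10), centred on the median gene, among genes at 50 CPM or more in either class. A gene was called at 2-fold or more if its sign was shared by all runs that held 20 or more cells of each class. Shares have exact 95% Clopper-Pearson intervals, and a class with 0 UMIs has an upper limit of 3 UMIs. The Poisson intervals of levels cover counting error only, and not the spread between cells or runs. Promoters and positions came from RefSeq GRCm38.p6 and GENCODE M21, which share the build of mm10. Of 6 genes looked up, 5 had a promoter; Ccl5 is named only. The comparison was tested on simulated counts with known changes and counting error only. These lack the spread between cells and runs seen here, so they do not show how the calls fare under it.

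Named genes were the 10 highest and 10 lowest past the fold in each comparison, up to 6 members of each list and 13 set genes; others are said to be chosen after their values were seen. Of 299 genes in 17 lists, 294 were in the table and 5 were not analysed here. The members and lists were chosen with earlier results of these data known. Alternatives were other limits on CD3 and coreceptor UMIs, marker-bearing cells left out, repeated barcodes left out, each run left out, other minimum levels and added CPM, no centring, the mean of each cell's CPM, and thinning. A few results are not reported here.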

Additional observations from a re-analysis of the deposited data

How the results depend on the processing

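No paired analysis was possible because no cell could be tied to a labelled library. Leaving out each run in turn gave a T cell share of 2.84 to 3.99%, a CD8 share of 24.7 to 29.8%, a CD4 share of 24.1 to 27.3% and Ifng at 233 to 299.7 CPM in all T cells. It gave 35 to 58 higher and 98 to 124 lower genes for CD8 against CD4, 105 to 160 and 83 to 106 for T against NK cells, 340 to 397 and 346 to 402 for T against other cells, and 104 to 210 and 11 to 24 for cells with neither coreceptor. At 3 or more CD3 UMIs the T cell share was 3.01%, Ifng 307 CPM and the last counts 55 and 6. Leaving out T cells with 3 or more neutrophil marker UMIs gave a T cell share of 0.998%, CD8 31.3%, CD4 29.3%, 74 genes higher in CD8 cells, 142 lower in T than NK cells, and 52 and 26 for neither; only 1 run then held enough cells, so the sign rule was looser. For monocyte markers, a list that holds Ly6c2, these were 2.005%, 21.2% and 36.4%, with Ifng at 331 CPM, 81 higher and 162 lower in CD8 cells, and 23 higher for neither (2 and 4 runs compared). For progenitor and plasmacytoid markers the T cell share was 2.97% and 2.95%. Without the granule-rich cells, an alternative chosen after seeing the data, it was 3.07%, Ifng was 324 CPM and 20 genes were higher for neither. A minimum of 2 coreceptor UMIs gave a CD4 share of 15.6%. Thinning gave CD8 17.4%, CD4 9.63%, Ifng 317 CPM, and 432 and 494 genes for CD8 against CD4, with the sign rule on runs not applied. A minimum of 20 CPM gave 83 and 154 for CD8 against CD4, 192 higher for T against NK, 625 lower for T against other cells and 212 higher for neither. No minimum gave 81 and 192, 205 and 179, 649 and 635, and 33 lower for neither. Neither-coreceptor counts were 77 and 29 without centring and 76 and 5 by mean CPM. The reversed values follow. In T against NK cells they were, without cells bearing neutrophil markers, Lcn2 -1.70, Ngp -2.76, S100a8 -3.25, S100a9 -3.18, Camp -2.97 and Lyz2 -0.88; without those bearing monocyte markers, -0.53, -0.50, -0.36, -0.35, -0.48 and -0.46; and without granule-rich cells, Lcn2 -0.38, Ngp -0.41, S100a8 -0.26, S100a9 -0.28 and Camp -0.40. For neither, Lcn2 was -0.061 and Ifitm6 -0.46 without neutrophil markers. Leaving those cells out removes neutrophil RNA by construction; the cause of the other shifts was not tested. A named gene's value was counted as kept if its sign held and it shifted by at most 1 standard deviation of its log2 values over runs. That limit is wide for genes that varied much over runs. By it 1761 values were kept, 80 moved further and 19 reversed. Of the list medians, 1489 stayed within the like limit and 92 moved. Depth limits coreceptor calls and low genes such as Tbx21.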

Other observations

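T cells of run 8, the run with the highest T cell share, carried more RNA of naive and recirculating cells than those of the other runs. Ccr7 was at 486 CPM in run 8 and 0 to 101 CPM in runs 1 to 7. S1pr1 was at 276 CPM in run 8 and 31.4 to 75.7 CPM in runs 1 to 7, and Lef1, a transcription factor of naive cells, at 288 CPM in run 8 and 21.9 to 175 CPM in runs 1 to 7. Satb1, a chromatin organiser, was at 525 CPM in run 8 and 32.8 to 288 CPM in runs 1 to 7, and Dapl1, a gene of naive T cells, at 154 CPM in run 8 and 0 to 105 CPM in runs 1 to 7. Run 8 was above every other run in each of them, while Ifng was at 50.2 CPM there and Gzma had no UMI. The immediate early gene Fos was at 217, 176 and 61.7 CPM in runs 6, 7 and 8 and at 874 to 1748 CPM in runs 1 to 5. Klf2, a factor that keeps T cells circulating, was at 358 and 339 CPM in runs 6 and 7 and at 846 to 1964 CPM in the others. These genes were chosen after their values were seen, and the runs have no labels, so what sets them apart was not tested.

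Within the 765 cells low in granule RNA, those with an Ifng UMI (351 cells, median 5891 UMIs) were set against those without (414 cells, median 4652 UMIs). Depth and run make-up differed with the split: run 6 held 15 and 86 of the cells and run 8 held 10 and 44, and their part in these values was not tested. Of the 14 cytotoxic genes, 13 had the higher level in cells with Ifng. The share of all genes higher in cells with Ifng was not counted, so nothing is read from this number. Ccl5 was at 11581 against 3549 CPM, Ccl3 at 443 against 86.1 CPM, Gzmb at 299 against 69.7 CPM, Gzmk at 163 against 38.3 CPM and Nkg7 at 1881 against 699 CPM. Tbx21 stood at 42.5 against 16.8 CPM. The cells without Ifng held more Il17a, at 5.72 against 129 CPM, more Foxp3, at 4.90 against 89.1 CPM, and more Ccr7, at 25.3 against 156 CPM. Beta-chain variable segments were sparse: Trbv12-2 gave 16 of 41 such UMIs in CD8 cells and 20 of 54 in CD4 cells, which is too few to read usage from.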
